A study of Mus musculus with 2 samples.

Results

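The miR-30 family was followed in RNA recovered from mouse keratinocytes by a streptavidin pulldown. Its members were chosen by name in the deposited tables: the 5p names of miR-30a, b, c, d and e, and the 3p names of miR-30a, b, d and e. All 9 were listed in both libraries, among 1477 miRNA names in all. The series holds 2 libraries of 1 group, labelled as replicates 1 and 2. Both came from mouse skin keratinocytes, an epithelial cell type, cultured in a low calcium medium, with exogenous expression of a Dsp-BirA fusion and with biotin added. Dsp is desmoplakin, a plaque protein of desmosomes, and BirA is a biotin ligase that tags proteins near it. Every library carried the fusion, and the labels name no strain, age, sex or promoter for it. Keratinocytes assemble few desmosomes while calcium is low. The study asked what Argonaute proteins, which carry miRNAs, do at that plaque. No input or untagged library was analysed here, so all values are levels in the recovered RNA and not an enrichment.

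A miRNA is cut from a hairpin RNA that has a 5p and a 3p arm, and an Argonaute keeps mainly the guide arm. Bases 2 to 8 of the guide, its seed, pair with target mRNAs and lower their output. The miR-30 family is an old vertebrate family whose 5p arms share their seed and differ further downstream. Its known targets include the transcription factor gene Snai1, a driver of the epithelial to mesenchymal transition, and Becn1, a gene of autophagy. In human epidermis miR-30a has been linked to barrier formation.

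Mature sequences came from a RefSeq miRNA table of the GRCm38.p6 assembly, which matched 5 of the 9 members. They are printed from the 5′ end to the 3′ end with the seed in capitals, to show what the guide arms share and where reads of neighbouring members can be told apart.
miR-30a-5p: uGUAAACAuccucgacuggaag
miR-30e-5p: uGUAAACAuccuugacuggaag
miR-30c-5p: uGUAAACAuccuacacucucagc
miR-30a-3p: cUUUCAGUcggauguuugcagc
miR-30e-3p: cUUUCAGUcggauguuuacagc

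The 3 5p sequences had the seed GUAAACA and were identical over their first 12 bases. With positions counted from 1 at the 5′ end, miR-30e-5p differed from miR-30a-5p by the single substitution C13U. miR-30c-5p differed from miR-30a-5p at 5 of 22 compared bases, namely C13A, G14C, G18C, G19U and A20C. The 3p arms of miR-30a and miR-30e both had the seed UUUCAGU and differed by the single substitution G18A. miR-30a and miR-30e are therefore told apart by 1 base in each arm, and how reads matching both were assigned is not given in the sources used here. The 3 5p arms began with U, as did 500 of the 1231 names with a sequence (40.6%). Names beginning with U held 64.2% ± 0.586 (SD, n = 2) of the counts of names with a sequence. Both printed 3p arms began with C, a first base of 21.0% of these names and of 6.38% ± 0.136 of their counts.

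The hairpins lie in neighbouring pairs. On chromosome 1, Mir30a (chr1:23272269-23272339, plus strand) is 19361 bases from Mir30c-2 (chr1:23291701-23291784, plus strand), and neither overlapped another gene of the RefSeq table. On chromosome 4, Mir30c-1 (chr4:120769534-120769622, minus strand) is 2983 bases from Mir30e (chr4:120772606-120772697, minus strand), and both lie within Nfyc, the gene of a subunit of the transcription factor NF-Y. Whether that part of Nfyc is exon or intron is not given in that table. Mir30b and Mir30d are neighbours in gene order on chromosome 15. miR-30c-5p has the same sequence in Mir30c-1 and Mir30c-2, so its counts add both genes. The 4 hairpins with a sequence are shown with both arms in capitals, since the balance of the arms is compared further on.
Mir30a: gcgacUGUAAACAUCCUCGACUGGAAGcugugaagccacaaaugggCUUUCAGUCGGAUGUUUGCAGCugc
Mir30e: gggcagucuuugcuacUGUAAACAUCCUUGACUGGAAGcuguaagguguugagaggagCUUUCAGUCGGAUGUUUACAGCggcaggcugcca
Mir30c-1: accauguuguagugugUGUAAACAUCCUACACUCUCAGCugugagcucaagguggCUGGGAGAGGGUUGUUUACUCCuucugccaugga
Mir30c-2: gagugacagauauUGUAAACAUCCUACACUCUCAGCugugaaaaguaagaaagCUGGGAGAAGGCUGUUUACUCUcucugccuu

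Between the arms lie 19 bases in Mir30a, 20 in Mir30e, 16 in Mir30c-1 and 17 in Mir30c-2.

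Replicate 1 held 3776893 miRNA counts and replicate 2 held 4122955. Levels are given as CPM, the count per 1000000 miRNA counts of the library, and a count of 0 would allow up to 3 counts, or 0.794 CPM in replicate 1 and 0.728 CPM in replicate 2. Epithelial marker miRNAs were all present: the 7 listed names, which include miR-205-5p and the miR-200 family, summed to 10.6% of counts in both libraries. Marker lists of muscle, nervous tissue, liver, blood and mesenchyme summed to at most 114 CPM each. The mesenchymal list was the least even of these, with 16.2 CPM in replicate 1 and 97.3 CPM in replicate 2. Nothing in the labels says whether the replicates were separate cultures, so the spread between them may be technical.

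The guide arms formed a block of 5 abundant names. mmu-miR-30c-5p had 42691 counts in replicate 1 and 46759 in replicate 2, or 11322 ± 26.8 CPM (SD, n = 2), and ranked 23 of all names by mean CPM. mmu-miR-30b-5p had 27809 and 30218 counts, or 7346 ± 23.8 CPM, and ranked 28. In both libraries these were the most abundant members, in this order. mmu-miR-30e-5p had 14728 and 15678 counts, or 3851 ± 68.5 CPM. mmu-miR-30d-5p had 14681 and 15480 counts, or 3821 ± 93.7 CPM. mmu-miR-30a-5p had 10698 and 12180 counts, or 2893 ± 86.1 CPM, and ranked 56. The order c, b, e, d, a was the same in both libraries, over a range of 3.91 ± 0.107 times from miR-30a-5p to miR-30c-5p.

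Of the 10 pairs of guide arms, 9 differed in both libraries by an exact two-sided binomial test on reads, with p-values adjusted over the 20 tests (Benjamini-Hochberg, threshold 0.05). The exception was miR-30e-5p against miR-30d-5p, neighbours in the order but from different loci. miR-30e-5p had 1.01 ± 0.00678 times the counts of miR-30d-5p, with an adjusted p of 0.789 in replicate 1 and 0.278 in replicate 2 by the exact test. The test compares reads within a library. Pairs of other names were not tested, so the count of 9 of 10 is not a trait of the family. Against the spread over the libraries, an exact sign-flip test on 2 values cannot fall below 0.5, and the ratios are therefore set beside their SD. miR-30c-5p had 1.54 ± 0.00865 times the counts of miR-30b-5p. Within the pair of neighbouring genes on chromosome 15, miR-30b-5p had 1.92 ± 0.0409 times the counts of miR-30d-5p. miR-30e-5p had 1.33 ± 0.0633 times those of miR-30a-5p, which differs from it by a single base. The distance from 1 was more than 3 times the SD for each of these ratios, and the SD of the miR-30e-5p to miR-30d-5p ratio was close to its distance from 1. Ligation and amplification can shift read ratios for each sequence, so the ratios describe reads.

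**Figure D1:**
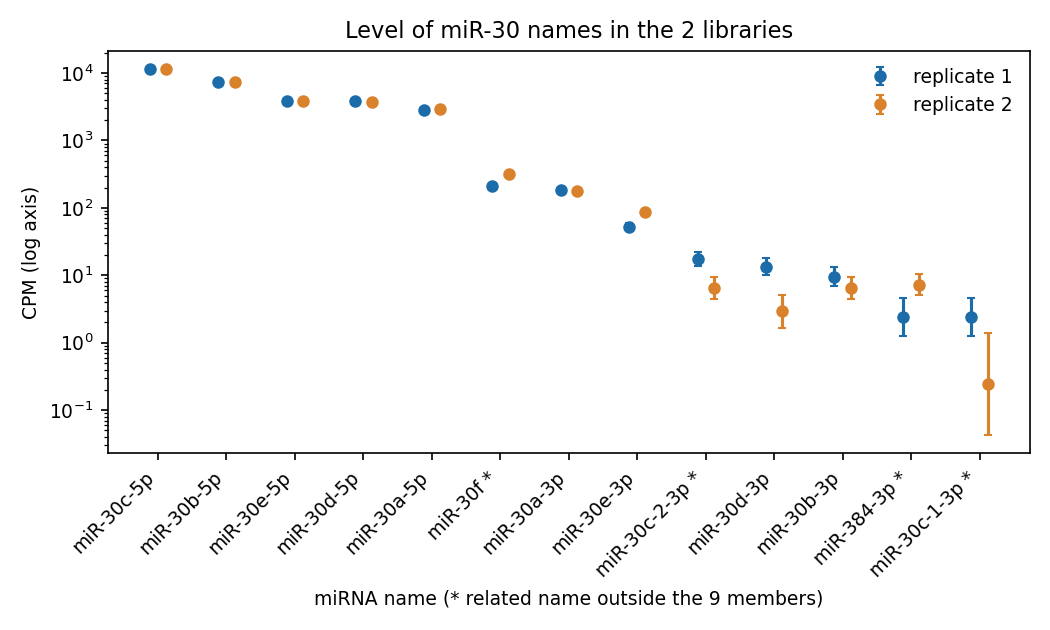
Level of each miR-30 name in CPM (log axis) in replicate 1 and replicate 2, with Wilson 95% intervals that cover counting error only; names with an asterisk are related names outside the 9 members. The 5 guide arms lie between 2832 and 11341 CPM in both libraries, and the 4 passenger arms among the members lie between 2.91 and 184 CPM.

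In replicate 1 the 5 guide arms together took 2.93% of miRNA counts, with a Wilson 95% interval of 2.91% to 2.95%. In replicate 2 they took 2.92%, with an interval of 2.90% to 2.93%. Intervals cover counting error only. Reads need not be independent molecules, since the handling of PCR copies is not given in the sources used here. Within these counts, miR-30c-5p held 38.7% ± 0.189 (SD, n = 2), miR-30b-5p 25.1% ± 0.0187, miR-30e-5p 13.2% ± 0.201, miR-30d-5p 13.1% ± 0.288 and miR-30a-5p 9.90% ± 0.319. The makeup of the family thus moved by less than 0.5 percentage points between the libraries for each name.

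Set beside other families of guide arms from several loci, the miR-30 5p names fell between let-7 and miR-29. They had 0.647 ± 0.0292 times the counts of the 9 let-7 and miR-98 5p names, which hold back growth programmes in differentiated cells. They had 1.44 ± 0.0234 times the counts of the 3 miR-29 3p names, known for targeting collagen genes, and 2.11 ± 0.0726 times those of the 2 miR-26 5p names. The distance of each of these 3 ratios from 1 exceeded its SD. The leading name held 38.7% of the miR-30 guide counts and 36.8% ± 1.22 (let-7c-5p, 1 of 9 names) of the let-7 counts. In the miR-29 family miR-29a-3p held 63.5% ± 0.255, and in the miR-26 family miR-26a-5p held 85.8% ± 0.174.

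**Figure D2:**
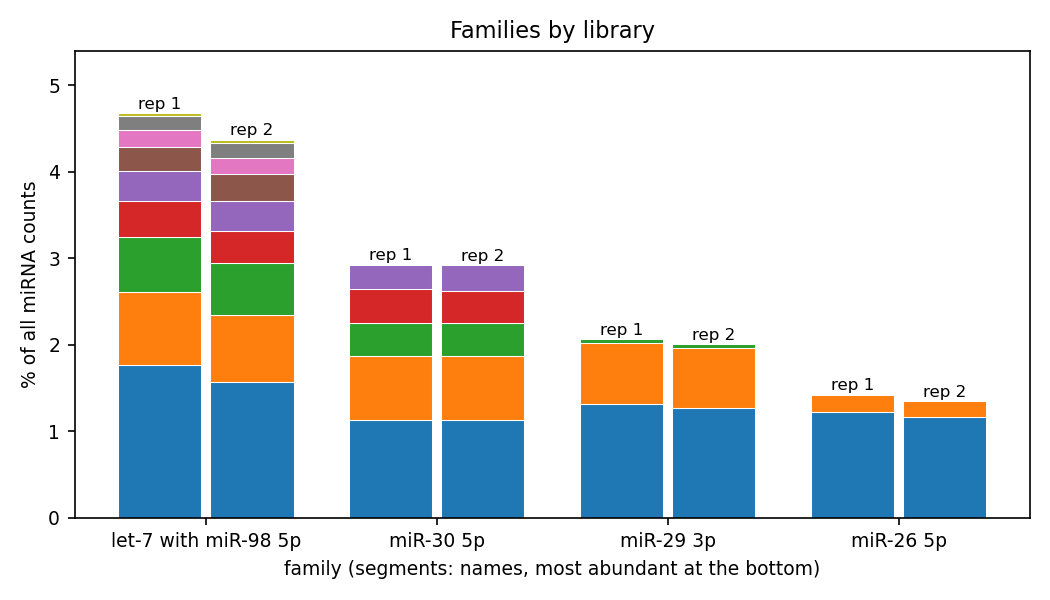
Share of all miRNA counts (%) taken by 4 families of guide arms in each library; each segment is 1 miRNA name, with the most abundant at the bottom. The miR-30 bars reach 2.93% and 2.92%, below let-7 with 4.68% and 4.37% and above miR-29 with 2.06% and 2.01%.

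Counts were also summed by seed, over the 1231 names with a sequence, amounting to 90.2% of all miRNA counts in replicate 1 and 88.0% in replicate 2. The seed GUAAACA was carried by miR-30a-5p, miR-30c-5p and miR-30e-5p in these libraries and by no other listed name with a sequence. It ranked 14 of 1051 seeds by mean CPM, at 15 in replicate 1 and 14 in replicate 2. With miR-30b-5p and miR-30d-5p added by name, the seed ranked 8 in both libraries. Other names without a sequence were not added to any seed, so the rank of 8 is not an even comparison. miR-384-5p, a miRNA from the X chromosome with the same seed, was listed in neither library. The other arm of its hairpin, miR-384-3p, had 9 counts in replicate 1 and 30 in replicate 2.

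The 3p arms, the passenger arms of these hairpins, were far less abundant and differed more among themselves. mmu-miR-30a-3p had 694 counts in replicate 1 and 740 in replicate 2, or 182 ± 3.02 CPM (SD, n = 2). mmu-miR-30e-3p had 197 and 361 counts, or 69.9 ± 25.0 CPM. mmu-miR-30d-3p had 51 and 12 counts. mmu-miR-30b-3p had 36 and 27 counts. In both libraries miR-30a-3p was the highest and miR-30e-3p the next, while miR-30b-3p and miR-30d-3p changed places. The 4 names summed to 0.0268% ± 0.00124 of all counts, and miR-30a-3p held 67.9% ± 4.28 of that sum. miR-30a-3p had 3.52 times the counts of miR-30e-3p in replicate 1 and 2.05 times in replicate 2.

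The 5p arm held nearly all counts of each hairpin. For the 4 hairpins with both arms among the members, it exceeded the 3p arm in both libraries by exact binomial tests adjusted over 164 hairpins (Benjamini-Hochberg). Such a call was common: 91.5% of the 164 hairpins passed in both libraries with the same arm ahead, and 58.5% with the 5p arm ahead, so the count of 4 of 4 is not particular to the family. The 3p share of miR-30a was 6.09% (Wilson 95% interval 5.67% to 6.55%) in replicate 1, and it was 5.73% (5.34% to 6.14%) in replicate 2. That of miR-30e was 1.32% (1.15% to 1.52%) and 2.25% (2.03% to 2.49%). That of miR-30d was 0.346% (0.263% to 0.455%) and 0.0775% (0.0443% to 0.135%), and that of miR-30b was 0.129% (0.0934% to 0.179%) and 0.0893% (0.0614% to 0.130%). miR-30a thus gave the largest 3p share in both libraries and miR-30e the next.

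Among the 6 pairs of hairpins, the odds of a 3p read differed in both libraries for all but miR-30b against miR-30d (Fisher's exact test on reads, two-sided, adjusted over 12 tests). For that pair the adjusted p was 7.65e-06 in replicate 1, with the higher share in miR-30d, and 0.738 in replicate 2 by the same exact test, with the higher share in miR-30b. Pairs of other hairpins were not tested in this way, so the number of pairs that differed is not a trait of the family. The contrast of miR-30a and miR-30e involves hairpins whose 5p arms and 3p arms each differ at 1 base. The odds of a 3p read were 4.85 times higher for miR-30a in replicate 1 (exact 95% interval 4.13 to 5.72) and 2.64 times higher in replicate 2 (2.32 to 3.01). The direction was the same in both libraries, but the intervals did not overlap, so the size of the difference varied between the libraries by more than counting error. The share ratio was 3.58 ± 1.46 (SD, n = 2).

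Only hairpins with both arms listed under the same hairpin name were compared, so strongly one-sided hairpins with no listed second arm were left out. Over the 164 hairpins compared, the less abundant arm held a median of 5.44% of the counts. It held a median of 0.999% over the 4 miR-30 hairpins. The hairpins were not matched on abundance, so the gap between these medians cannot be read as a trait of the family. By this measure miR-30a ranked 81 of 164 from the most even hairpin, miR-30e 112, miR-30d 147 and miR-30b 153. miR-30a was thus near the middle of the hairpins compared, which include many with far fewer counts. Among the hairpins with more counts than miR-30a in both libraries, only miR-31, miR-17, miR-106b and miR-93 were more even. miR-30a was therefore one of the more even hairpins at its abundance. miR-30b and miR-30d were among the 42 of the 164 hairpins (25.6%) whose less abundant arm held under 1%.

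**Figure D3:**
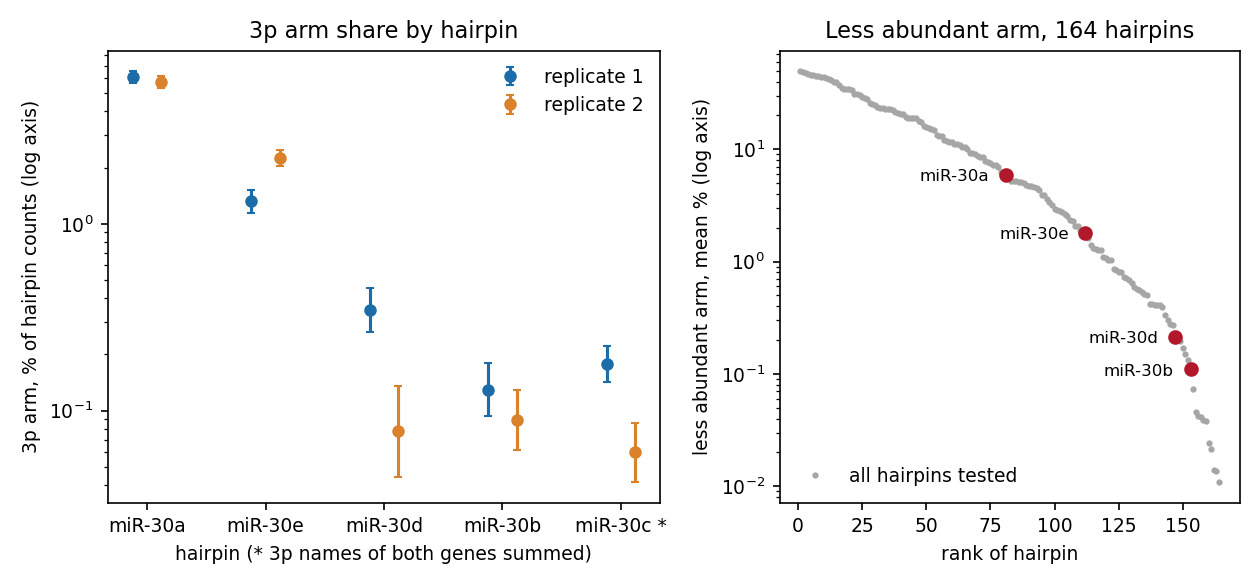
Left, share of hairpin counts from the 3p arm (%, log axis) in each library with Wilson 95% intervals, with both miR-30c 3p names summed for the hairpin marked by an asterisk. Right, mean share of the less abundant arm (%, log axis) for 164 hairpins with both arms listed, in order of rank. The 4 miR-30 hairpins are in red: miR-30a has 5.91% and miR-30b has 0.109%.

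Related names outside the 9 members were listed as well. The 3p arms of the miR-30c genes have the seed UGGGAGA and differ from each other at 3 bases, G9A, U12C and C22U from miR-30c-1-3p to miR-30c-2-3p, so their reads can be told apart where those of miR-30c-5p cannot. They are printed with the seed in capitals.
miR-30c-1-3p: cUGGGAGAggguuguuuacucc
miR-30c-2-3p: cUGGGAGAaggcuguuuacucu
miR-30f: gUAAACAUccgacugaaagcuc

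miR-30c-2-3p had 67 counts in replicate 1 and 27 in replicate 2, and miR-30c-1-3p had 9 and 1. The chromosome 1 gene thus gave more 3p reads than the chromosome 4 gene in both libraries. This does not show which gene gave the miR-30c-5p reads. Both names together made 0.178% (Wilson 95% interval 0.142% to 0.222%) and 0.0598% (0.0414% to 0.0865%) of all miR-30c counts in replicates 1 and 2.

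miR-30f is annotated on the plus strand of chromosome 4 at chr4:120772621-120772642, opposite the Mir30e hairpin, and overlaps 19 bases of miR-30e-3p on the other strand. Its first 10 bases equal bases 2 to 11 of miR-30e-5p, so its own seed, UAAACAU, is that of the guides moved by 1 base. miR-30f had 808 counts in replicate 1 and 1289 in replicate 2, or 263 ± 69.8 CPM (SD, n = 2). It had 3.84 ± 0.375 times the counts of miR-30e-3p, and miR-30a-5p, the least abundant guide, had 11.3 ± 2.68 times its counts. How reads that match miR-30f and the guides in part were assigned is not given in the sources used here.

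The libraries were set against each other name by name, after scaling by their totals, with an exact two-sided binomial test over the 1002 names whose counts averaged 10 or more. The test compares the 2 libraries and no conditions. The guide arms kept their levels closely: their log2 ratios of replicate 2 over replicate 1 ran from -0.05 for miR-30d-5p to 0.061 for miR-30a-5p. For miR-30b-5p the log2 ratio was -0.0066 (exact 95% interval -0.030 to 0.017) and for miR-30c-5p 0.0048 (-0.014 to 0.024). Of the 5 guides 3 passed an adjusted p of 0.05, against 70.6% of all names tested: miR-30a-5p was higher in replicate 2, and miR-30d-5p and miR-30e-5p were lower. None of the 5 reached a ratio of 1.5-fold, while 52.7% of all names tested passed with that ratio also required. The call of miR-30e-5p ended under TMM factors and those of miR-30d-5p and miR-30e-5p under DESeq2 size factors. Under DESeq2 size factors miR-30c-5p passed, with a log2 ratio of 0.023.

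The median absolute log2 ratio was 0.036 over the guides and 0.83 over all names tested. Names at 0 in 1 library were kept in the 0.83 as the largest ratios, unlike in the class values below. The 59 names averaging 10000 counts or more, which include all 5 guides, had a median of 0.053 and an SD of the log2 ratio of 0.22. Scaled by totals, miR-30c-5p had the smallest absolute log2 ratio of the 59 in that class and miR-30b-5p the next. By the same scaling, 34 names had a smaller one than miR-30a-5p. Under DESeq2 size factors the log2 ratios were 0.023 for miR-30c-5p and 0.012 for miR-30b-5p. The class was not ranked again under these factors, so the order holds for totals only.

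The passenger arms varied more, at lower counts. miR-30d-3p was lower in replicate 2, with a log2 ratio of -2.21 (exact 95% interval -3.26 to -1.29) and an adjusted p of 2.60e-07 by the exact binomial test. miR-30e-3p was higher, with 0.75 (0.49 to 1.01) and an adjusted p of 9.90e-09. miR-30a-3p had -0.034 (-0.19 to 0.12) and miR-30b-3p -0.54 (-1.32 to 0.22), and neither passed. Thus 2 of the 4 passed, in opposite directions, against backgrounds of 36.2% of names called higher and 34.3% called lower in replicate 2. Among the 244 names with a mean of 30 to 100 counts, 81.6% had a smaller absolute log2 ratio than miR-30d-3p. The median absolute log2 ratio in that class was 0.97 and the SD of the log2 ratio 1.71, with 10 names at 0 in 1 library left out of both. For miR-30e-3p, 59.8% of the 102 names with 100 to 300 counts had a smaller one. The 5p arm of miR-30e moved the other way, with a log2 ratio of -0.036.

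Outside the members, miR-30f was higher in replicate 2 with a log2 ratio of 0.55 (exact 95% interval 0.42 to 0.68), and miR-30c-2-3p was lower with -1.44 (-2.14 to -0.77). miR-384-3p had 1.61 (0.50 to 2.87). All 3 passed an adjusted p of 0.05, as did 70.6% of all names tested, and miR-30c-1-3p was too low to be tested.

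**Figure D4:**
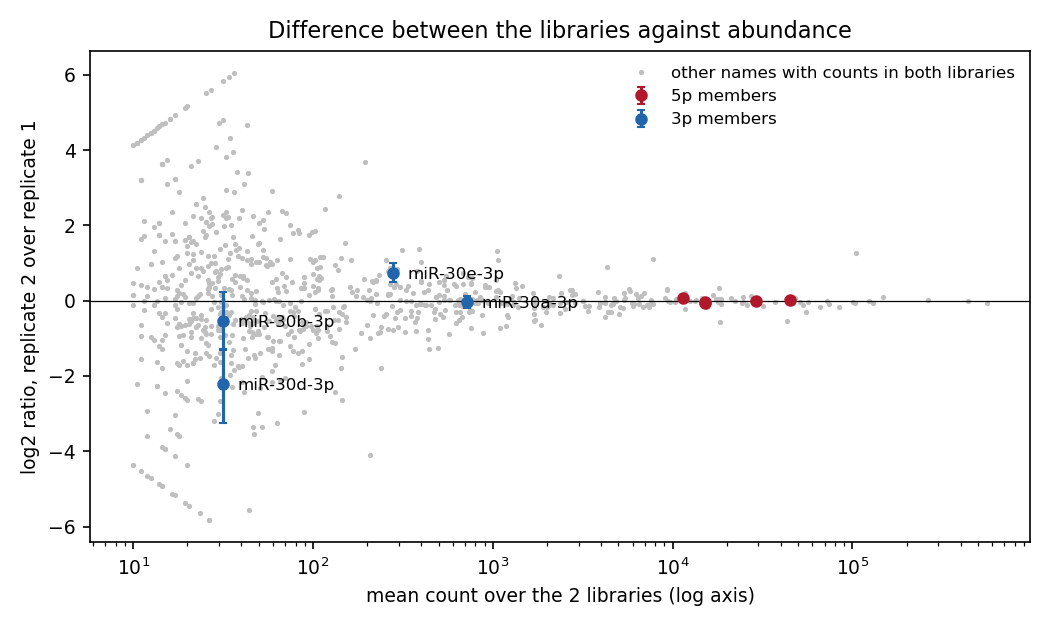
Log2 ratio of replicate 2 over replicate 1 against the mean count (log axis) for every tested name that had counts in both libraries, with exact 95% intervals for the members. The 5 guide arms lie between -0.05 and 0.061, and the 3p members between -2.21 and 0.75.

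For each member the name nearest in level was taken as the smallest distance of log2(CPM + 1) over the 2 libraries, a likeness of level in 2 points and no more. miR-30d-5p and miR-30e-5p were each other's nearest name, at a distance of 0.019. The nearest name was miR-429-3p for miR-30c-5p (0.038), miR-29b-3p for miR-30b-5p (0.097) and miR-193a-3p for miR-30a-5p (0.035). For the passenger arms it was miR-339-5p for miR-30a-3p (0.0046), miR-1191b-3p for miR-30e-3p (0.11), miR-669j for miR-30b-3p (0.036) and miR-6970-5p for miR-30d-3p (0.054).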

How the data were processed

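The authors deposited 1 table per library with a miRNA name and a raw count. Per the submitters' processing notes, cutadapt, Novoalign and the mm10 build were used. Their settings, the miRNA reference, and the handling of PCR copies and of reads matching several miRNAs are not given in the sources used here. RNase was applied to the lysates, RNA held on streptavidin beads was ligated, and cDNA was amplified, per the labels' protocols. Names missing from a table were set to 0, and names beginning with Cali, 0.00265% and 0.000218% of the counts, were left out.

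Exact tests, Wilson intervals and Clopper-Pearson intervals used scipy 1.17.1 with Python 3.11.15. Hairpins needed both arms listed under the same hairpin name and at least 100 counts in each library. edgeR 4.0.16 (TMM) and DESeq2 1.42.0 size factors were alternatives. With 1 group, edgeR's quasi-likelihood test had no contrast. On simulated counts that varied by counting error only, 200 of 1002 names were given a 2-fold change. The exact test recovered 58.0% of the changed names, and 2.52% of its calls were unchanged names. The simulation held no further spread between libraries, so these shares are not error rates of the calls on the real libraries. The text names all members, related names, the nearest name by level and 3 other families. Members, lists and tests were chosen with earlier results of these data known.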

Additional observations from a re-analysis of the deposited data

How the results depend on the processing

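The share of the 5p members was 3.41% when the most abundant name, miR-31-5p, was left out of the total and 3.23% without names numbered 2000 and above. That of the 3p members was 0.0312% and 0.0296%. Each rise follows from the smaller total. Adding miR-30c moved the summed 5p arm share of the 4 hairpins from 98.5% to 99.0%. The seed ranked 8 with miR-30b-5p and miR-30d-5p added by name, an alternative chosen after seeing the data that added names to no other seed. It ranked 14 with a seed of bases 2 to 7. With a ratio of 1.5-fold also required in the exact binomial test, 0 of the 5p members passed, against 3 by adjusted p alone (DESeq2 size factors and TMM factors gave 2 each). With a mean of at least 100 counts, 1 of the 3p members passed, where 2 could be tested, against 70.9% of the 358 names tested.

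Of 18 log2 ratios under TMM or DESeq2 factors, 13 kept direction and side of the threshold, and the largest move was 0.018. miR-30b-5p reversed to 0.012 under DESeq2 size factors, and neither value passed. Leaving out each library gave 2.92% to 2.93% for the 5p members, 0.0259% to 0.0277% for the 3p members, 98.47% to 98.58% for the summed 5p arm share, ranks of 14 to 15 for the seed, and 4 of 4 hairpins called. Counts below about 100 limit statements on miR-30b-3p and miR-30d-3p. No paired analysis was possible because the series has a single group.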
